A study of Rattus norvegicus with 8 samples.

Results

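The mitochondrial ribosomal protein genes made up 75 of the 28909 gene symbols counted in cultured rat hippocampal neurons. They were chosen by name alone, as every symbol that begins with Mrpl or Mrps followed by a number. Primary hippocampal neurons of Sprague-Dawley rats were grown on porous culture inserts, which keep cell bodies on the upper side and let processes grow through to the lower side, so that RNA can be collected from each side separately. Total RNA depleted of ribosomal RNA was sequenced from 4 groups of 2 libraries: somata of control cultures, somata of PTX-treated cultures, processes of control cultures and processes of PTX-treated cultures. PTX is picrotoxin, an antagonist of the GABA-A receptor that raises network activity, and it was present for 48 h between days 18 and 20 in vitro. All groups shared the strain, the cell preparation and the insert culture, and each library was a bulk extract in which glial cells were also present. The labels do not say whether the 2 libraries of a group came from separate cultures, so the p-values measure only the spread between these libraries.

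Mitochondria have their own ribosome, which translates the handful of respiratory chain proteins encoded by the mitochondrial genome. Its ribosomal RNAs are transcribed inside the organelle, whereas all of its proteins are encoded in the nucleus, translated in the cytosol and imported. Some of these proteins descend from bacterial ribosomal proteins and others were added in the mitochondrial lineage. Long axons and dendrites contain many mitochondria, which supply energy for synaptic transmission far from the cell body.

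Of the 75 genes, 47 encode proteins of the large subunit and 26 proteins of the small subunit. The names do not always give the subunit: Mrps18a and Mrps30 are counted here with the large subunit. Mrps36 carries a ribosomal name but its product belongs to the 2-oxoglutarate dehydrogenase complex, and Mrps21l, a near-copy of Mrps21, was placed in no class. By ancestry, 44 of the genes have a bacterial homologue and 29 are specific to mitochondria. All 75 passed the filter of over 20 reads in 2 or more libraries. Mrpl1 and Mrps21l passed it only through the somata, with 14 to 23 reads for both genes there, against 6 to 9 reads of Mrpl1 and 14 to 19 reads of Mrps21l in processes. Mrpl3, Mrpl17, Mrpl51 and Mrpl4 were read most often after scaling, whereas Mrpl1, Mrps21l, Mrpl53 and Mrpl49 were read least often and are measured with the least precision. Transcript length was not used, so these reads do not rank the genes by transcript number.

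Library totals ranged from 12290890 to 18455662 counts. Mitochondrial rRNA took 21.1% to 24.8% of the counts in somata and 64.9% to 68.3% in processes. Without the rRNA and all other genes of the mitochondrial genome, 9517542 to 11227599 counts remained in a somata library. In a processes library, 4702054 to 5491237 remained. The median mitochondrial ribosomal protein gene therefore had 198 to 257 reads in a somata library and 86 to 96 reads in a processes library. Levels below are CPM, the counts of a gene out of 1000000 in a library, scaled with the TMM factors of edgeR, which lay between 1.81 and 1.93 in somata and between 0.486 and 0.570 in processes. Neuronal markers summed to between 1948 and 2119 CPM in control somata and to between 5757 and 6334 CPM in control processes, with all 8 genes detected. Astrocyte markers summed to between 3643 and 4069 CPM in control somata and to between 12687 and 14248 CPM in control processes. Of the individual markers, 4 of 8 neuronal and 3 of 7 astrocyte genes were called higher in control processes, and 3 and 2 were called lower. Oligodendrocyte markers summed to at most 500 CPM in any library, and microglial markers to at most 1.76 CPM, with Cx3cr1, C1qa and Ptprc at 0 in all processes libraries. The part of the astrocytes in the compartment differences below was not tested. In bulk RNA, fewer cells of a type and less RNA per cell cannot be told apart.

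The first question was whether transcripts of the mitochondrial ribosome were distributed like those of its partners, namely the cytosolic ribosome, the respiratory chain and the mitochondrial genome. In control cultures the mitochondrial ribosomal protein genes lay on both sides of the average gene. In processes against somata, 21 of the 75 were called higher, where 25.8% of the 14309 tested genes were, and 6 were called lower, where 21.9% were. The median log2 fold change was 0.12, beside -0.05 over all tested genes, and the values ran from -1.07 to 1.43 with a median SE of 0.17. A log2 fold change above 1 was reached by 6 of the genes (11.6% of all tested genes) and one below -1 by 1 gene (7.58%). The call was an adjusted p under 0.05 in edgeR's quasi-likelihood test.

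The gene lists around the mitochondrial ribosome gave other values in the same comparison. Of the 72 tested genes for cytosolic ribosomal proteins, 71 were called higher in control processes and none lower, and their median log2 fold change was 1.74. Of the 76 nuclear genes of the respiratory chain, 65 were called higher and none lower, with a median of 1.0. All 13 mitochondrially encoded protein genes were called higher, with a median of 2.98, and so were the 2 mitochondrial rRNA genes, with 3.28 and 3.47. Because the libraries were depleted of ribosomal RNA, the rRNA counts are what depletion left, and its part in these 2 values was not tested. The mitochondrial ribosomal protein genes, with their median of 0.12, lay close to mitochondrial protein import (0.12, with 9 of 22 genes higher and 0 lower) and the mitochondrial translation factors (0.22, with 4 of 15 higher and 0 lower). The mitochondrial aminoacyl-tRNA synthetases, which charge tRNAs in the organelle, had a median of 0.01 with 2 of 17 genes higher and 1 lower. The assembly and rRNA modification factors of the mitochondrial ribosome had the lowest median of the lists shown, -0.35, with 2 of 26 genes higher and 7 lower. The list for the expression of mitochondrial DNA had -0.11, with 1 of 9 genes higher and 2 lower.

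**Figure D1:**
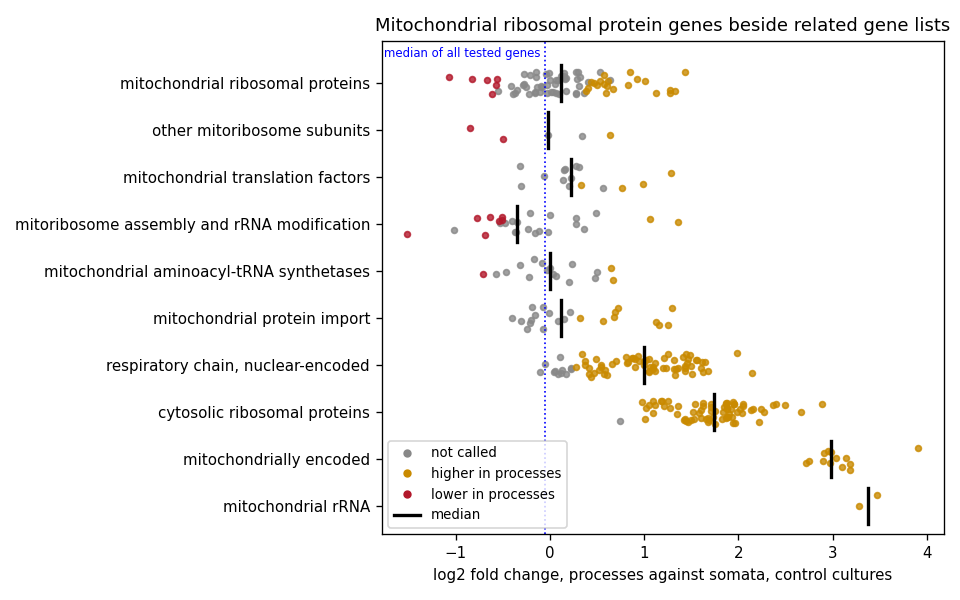
Log2 fold change of processes against somata in control cultures (x axis) for each tested gene, by gene list (y axis), with a bar at the list's median and a dotted line at the median of all tested genes. The mitochondrial ribosomal protein genes straddle 0 with a median of 0.12, whereas cytosolic ribosomal proteins (1.74), nuclear respiratory chain genes (1.0) and mitochondrially encoded genes (2.98) lie to the right.

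The summed counts gave these 3 lists in the same order. Mitochondrial ribosomal protein genes took 0.181% and 0.189% of the counts outside the mitochondrial genome in the control somata libraries and 0.156% and 0.160% in the control processes libraries. In PTX cultures they took 0.194% in both somata libraries and 0.163% in both processes libraries. On this scale, which uses no TMM factor, the share was lower in every processes library than in any somata library. Cytosolic ribosomal protein genes took 0.760% to 0.879% in somata and 2.002% to 2.227% in processes, and nuclear respiratory chain genes 0.883% to 0.967% in somata and 1.17% to 1.23% in processes.

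Among the genes higher in processes, Mrpl52 led. Mrpl52 encodes a mitochondria-specific protein of the large subunit, and its level was 9.52 and 9.87 CPM in control somata and 28.9 and 23.4 CPM in control processes. The PTX libraries gave 10.4 and 10.4 CPM in somata and 27.6 and 27.0 CPM in processes. All 4 processes libraries thus lay above all 4 somata libraries, and the log2 fold change was 1.43 (SE 0.14, 95% interval 1.13 to 1.73, adjusted p = 1.35e-05), a 2.69-fold difference.

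Mrpl33, a homologue of the bacterial protein L33, had 4.59 and 5.68 CPM in control somata and 12.04 and 13.9 CPM in control processes. Its log2 fold change was 1.33 (SE 0.17, adjusted p = 0.000108). Mrps21, a small-subunit homologue of bacterial S21, had 7.86 and 8.26 CPM in control somata and 20.5 and 18.4 CPM in control processes, and its log2 fold change was 1.27 (SE 0.14, adjusted p = 4.25e-05). Mrpl54, a mitochondria-specific protein of the large subunit, had 7.52 and 9.91 CPM in control somata and 22.9 and 19.3 CPM in control processes, with a log2 fold change of 1.27 (SE 0.17, adjusted p = 0.000138). None of these groups overlapped, and in each of the 3 genes the PTX libraries of processes also lay above the PTX libraries of somata.

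Mrps21l had a log2 fold change of 1.12 (SE 0.41, adjusted p = 0.0436) on 14 and 22 reads in control somata and 14 and 14 in control processes. Reads of Mrps21l and Mrps21 may be shared between these copies, so both values are uncertain. Mrps36, of the 2-oxoglutarate dehydrogenase complex, had 7.44 and 7.17 CPM in control somata and 16.8 and 12.4 CPM in control processes, with a log2 fold change of 1.01 (SE 0.20, adjusted p = 0.0023). The other 15 genes called higher had log2 fold changes between 0.39 and 0.93, with Mrpl42 (0.93), Mrpl23 (0.85), which lines the exit tunnel, and Mrps33 (0.83) at the top. They were followed by Mrpl27 (0.67), Mrpl48 (0.61), Mrps25 (0.61), Mrps18c (0.60), Mrps14 (0.57), Mrpl51 (0.57), Mrpl13 (0.53), Mrps17 (0.50), Mrps18a (0.47), Mrps23 (0.44), Mrps16 (0.40) and Mrps2 (0.39). Of these 15 genes, Mrpl42, Mrpl23 and Mrpl27 kept their calls when any 1 library was left out. Each of the others lost its call without at least 1 control library, and Mrps2, Mrps18c and Mrps23 lost theirs without any 1 of them. Mrps16 kept its call only when control processes replicate 2 was the library left out. DESeq2 did not call Mrps2, Mrps16, Mrps17 or Mrps23.

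Among the genes lower in processes, Mrpl2 was the most changed. Its product is the homologue of bacterial L2, which lies near the peptidyl transferase centre. Mrpl2 had 6.93 and 7.44 CPM in control somata and 3.79 and 3.05 CPM in control processes, on 34 and 26 reads in the latter. The groups did not overlap, and the log2 fold change was -1.07 (SE 0.22, 95% interval -1.55 to -0.58, adjusted p = 0.00257).

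Mrps22, a mitochondria-specific protein of the small subunit, had 12.3 and 13.1 CPM in control somata and 6.80 and 7.52 CPM in control processes, with a log2 fold change of -0.83 (SE 0.16, adjusted p = 0.00179). The other genes called lower were Mrpl43 (-0.66, adjusted p = 0.0362), Mrpl22 of the exit tunnel (-0.61, adjusted p = 0.0198), Mrps9 (-0.57, adjusted p = 0.0174) and Mrps31 (-0.56, adjusted p = 0.0293). These values are log2 fold changes of processes against somata. DESeq2 did not call Mrpl43, Mrpl22, Mrps9 or Mrps31, nor Mrps21l among the genes higher. The calls of Mrpl2 and Mrps22, and those of Mrpl52, Mrpl33, Mrps21, Mrpl54 and Mrps36, held when any 1 library was left out. That of Mrpl43 was lost without control somata replicate 1 or control processes replicate 2, and that of Mrps31 without control somata replicate 2 or control processes replicate 1. Mrpl22 lost its call without either control somata library or control processes replicate 1, and Mrps9 without either control somata library or control processes replicate 2. The call of Mrps21l was lost without any control library or either PTX somata library. Over these fits the log2 fold change ran from -0.92 to -0.45 for Mrpl43, from -0.73 to -0.41 for Mrps31, from -0.72 to -0.50 for Mrpl22, from -0.74 to -0.43 for Mrps9 and from 0.89 to 1.41 for Mrps21l.

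**Figure D2:**
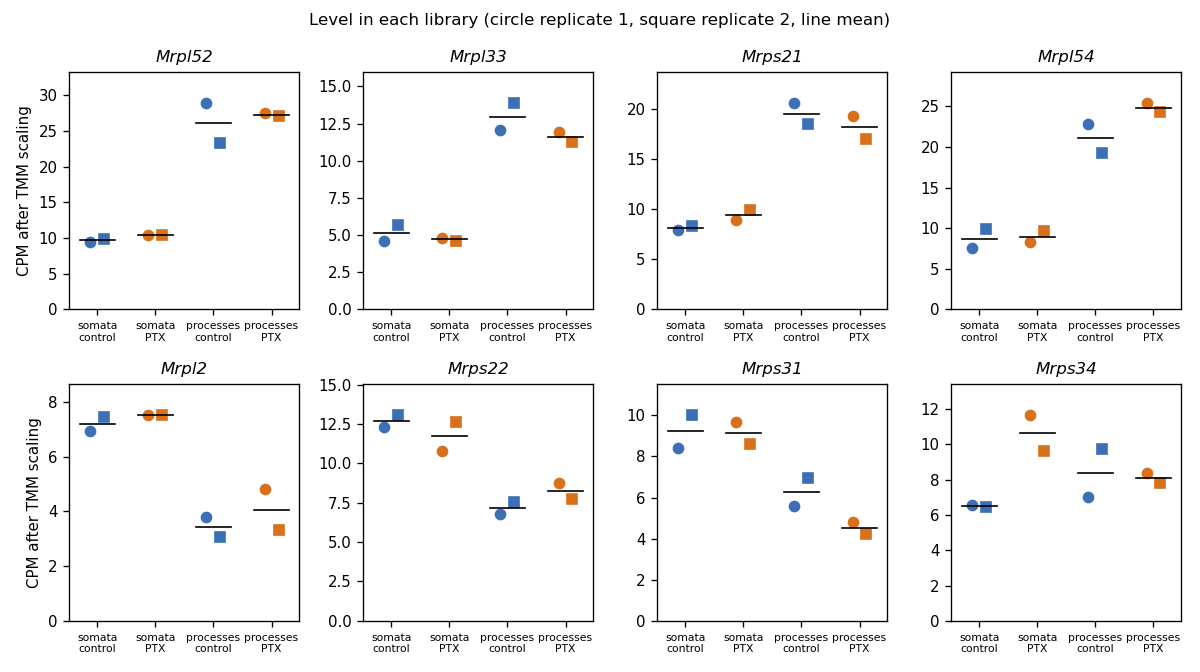
Level of 8 mitochondrial ribosomal protein genes (CPM after TMM scaling, y axis from 0) in each of the 8 libraries (x axis, grouped by compartment and treatment; blue control, orange PTX), with the mean of each group as a line. Mrpl52, Mrpl33, Mrps21 and Mrpl54 are higher in every processes library, Mrpl2, Mrps22 and Mrps31 are lower, and Mrps34 is higher in the PTX than in the control libraries of somata.

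The genes called in each direction came from both subunits and from both ancestries. Over all tested genes, 25.8% were called higher and 21.9% lower in control processes. Of the 47 large-subunit genes, 10 were called higher and 3 lower, with a median log2 fold change of 0.10. Of the 26 small-subunit genes, 9 were called higher and 3 lower, with a median of 0.12. The 44 genes with a bacterial homologue had 11 higher, 3 lower and a median of 0.06, and the 29 mitochondria-specific genes had 8 higher, 3 lower and a median of 0.27. These medians were not compared by a test.

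By site in the ribosome, the values were mixed as well. Mrpl10 and Mrpl12, the proteins of the stalk that recruits translation factors, had log2 fold changes of 0.00 (SE 0.13) and 0.10 (SE 0.13). The 4 genes of the decoding and mRNA channel region, Mrps5, Mrps7, Mrps11 and Mrps12, ran from -0.16 to 0.03, and none was called. Of the 5 exit tunnel genes, Mrpl23 was called higher and Mrpl22 lower, whereas Mrpl17 (-0.09), Mrpl45 (0.27) and Mrpl47 (0.06) were not called. Of the 7 genes of the central protuberance, Mrpl48 (0.61, adjusted p = 0.00905) was called higher. Mrpl58, a peptidyl-tRNA hydrolase that became part of the large subunit, had -0.39 (SE 0.20, adjusted p = 0.126).

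The Mrps18 paralogs occupy different places, since Mrps18a lies in the large subunit and Mrps18b and Mrps18c in the small subunit. In control processes against somata, Mrps18a had a log2 fold change of 0.47 (SE 0.13, adjusted p = 0.0119), Mrps18c 0.60 (SE 0.20, adjusted p = 0.0296) and Mrps18b 0.28 (SE 0.17, adjusted p = 0.212). The interval of Mrps18b, from -0.10 to 0.66, contains the values of the other paralogs. The call of Mrps18c was lost without any 1 of the 4 control libraries and that of Mrps18a without control somata replicate 1 or control processes replicate 1.

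Subunits of the mitochondrial ribosome that carry other names were also called in both directions. Gadd45gip1 of the large subunit was higher in control processes (log2 fold change 0.64, SE 0.15, adjusted p = 0.00556). Aurkaip1 (-0.85, SE 0.14, adjusted p = 0.000754) and Ptcd3 (-0.50, SE 0.14, adjusted p = 0.0115), both of the small subunit, were lower. Dap3 (-0.02, SE 0.14) and Chchd1 (0.34, SE 0.15, adjusted p = 0.0882) were not called.

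The translation factors and the assembly factors that were called are named here with their log2 fold changes in control processes against somata. Among translation factors, those called higher were the release factor gene Mtrf1 (1.29), Guf1 (0.98), the elongation factor gene Gfm1 (0.77) and Gfm2 (0.33). Among assembly and rRNA modification factors, Mettl17 (-1.51), Eral1 (-0.77), Mterf4 (-0.68), Malsu1 (-0.63), Mterf3 (-0.54), Mtg2 (-0.51) and Afg3l2 (-0.51) were called lower, and Ngrn (1.36) and Rpusd4 (1.06) higher.

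The split between higher and lower calls depended on the scaling of processes against somata. With upper quartile factors, 11 genes were called higher and 15 lower in control cultures. Of all 14309 tested genes, 2750 were called higher and 4704 lower, against 3688 and 3135 with TMM. The median log2 fold change was -0.09, beside -0.25 over all tested genes. Scaling factors shift all genes by nearly the same amount, so the distance between these medians, 0.17 on both scales, could hardly change. With TMM, that distance was 0.11 without control processes replicate 2 and 0.23 without control somata replicate 2. By library size only, where mitochondrial rRNA enters the totals, 0 genes were higher and 74 lower (191 and 13271 of all tested genes), including Mrpl52 (-0.39) and every other gene named above as higher except Mrps21l, which was not called, and the median of all tested genes was -1.86. Leaving out control processes replicate 1 left 11 genes higher (3166 of all tested genes), leaving out either control somata library left 13 higher (2916 without replicate 1 and 3009 without replicate 2), and without control somata replicate 2 there were 3 lower (2468 of all tested genes).

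The libraries of PTX cultures gave the compartment comparison a second time, with no library in common. Both comparisons came from the same fit, which shared its estimate of the spread over all 8 libraries, so their calls were not independent. Of the 75 genes, 19 were called higher in processes (25.7% of all tested genes) and 7 lower (24%), with a median log2 fold change of 0.08, beside -0.05 over all tested genes. A log2 fold change above 1 was reached by 4 genes (11.4% of all tested genes) and one below -1 by 1 gene (9.67%). All 19 genes called higher in PTX cultures were also called higher in control cultures, where they made up 90.5% of the calls. Of the genes called lower, 3 were shared, which is 50% of the control calls and 42.9% of the PTX calls. No gene was called in opposite directions, and 57 of 75 had the same sign. Pearson's r of the log2 fold changes was 0.89 (Spearman's rho 0.85), as a description over genes that share libraries and depth. The shared calls, signs and correlations were not computed over all tested genes, so they are not shown to be particular to these 75 genes. The neighbouring lists had medians of 1.70 for cytosolic ribosomal proteins (71 of 72 higher), 0.88 for the nuclear respiratory chain (60 of 76 higher) and 3.24 for the mitochondrially encoded genes (13 of 13 higher). Under upper quartile factors 14 genes were called higher and 13 lower in PTX cultures (2904 and 4768 of all tested genes, against 3680 and 3441 with TMM), and without PTX processes replicate 2 there were 3 lower (2345 of all tested genes).

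Of the 6 genes with the highest values in each culture, 5 were the same. In PTX cultures Mrpl54 had 8.31 and 9.65 CPM in somata and 25.4 and 24.3 CPM in processes, a log2 fold change of 1.47 (SE 0.17, adjusted p = 4.1e-05). It was followed by Mrpl52 (1.39), Mrpl33 (1.30), Mrps21l (1.27), Mrps21 (0.95) and Mrps33 (0.90). Mrps36 had 0.57 (SE 0.20, adjusted p = 0.0335). The Mrps18 paralogs had 0.41 for Mrps18a (adjusted p = 0.0194), 0.37 for Mrps18b (adjusted p = 0.0892) and 0.53 for Mrps18c (adjusted p = 0.0426). The call of Mrps18c was lost with DESeq2 and without any 1 library other than PTX processes replicate 2, and its log2 fold change was 0.18 without PTX processes replicate 1 and 0.83 without PTX processes replicate 2. The calls of Mrps21l, Mrps18a and Mrps36 were each lost without PTX processes replicate 1 and without 1 or both of the PTX somata libraries, with ranges of 0.93 to 1.56, 0.32 to 0.51 and 0.33 to 0.79 over the libraries left out.

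Of the genes called lower, Mrpl2, Mrps22 and Mrps31 were called in both cultures. Whether the bottom of the order varied more than the top was not tested. Mrps31, a mitochondria-specific protein of the small subunit, had 9.67 and 8.59 CPM in somata and 4.82 and 4.22 CPM in processes of PTX cultures, a log2 fold change of -1.02 (SE 0.20, adjusted p = 0.00145). Mrps30, of the large subunit despite its name, had 8.70 and 8.21 CPM in somata and 4.59 and 4.52 CPM in processes, a log2 fold change of -0.89 (SE 0.17, adjusted p = 0.00161). The processes libraries lay below the somata libraries for each of these genes. Mrpl39 had -0.98 (adjusted p = 0.00405), Mrpl2 -0.90 (adjusted p = 0.00509), Mrpl44 -0.52 (adjusted p = 0.0161), Mrps22 -0.51 (adjusted p = 0.0202) and Mrpl41 -0.47 (adjusted p = 0.0344). Without PTX processes replicate 2, Mrpl2 (-0.64), Mrpl41, Mrpl44 and Mrps22 were not called. The call of Mrpl41 was also lost without any 1 somata library or PTX processes replicate 1. That of Mrpl44 was also lost without PTX somata replicate 1 or PTX processes replicate 1, and that of Mrps22 without PTX somata replicate 2. DESeq2 did not call Mrpl41, Mrpl44 or Mrps22. In control cultures Mrps30 (-0.37, adjusted p = 0.0849), Mrpl39 (-0.55, adjusted p = 0.0675), Mrpl44 (-0.28, adjusted p = 0.159) and Mrpl41 (-0.27, adjusted p = 0.2) were not called, and whether their compartment differences changed with PTX is given by the interaction below.

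**Figure D3:**
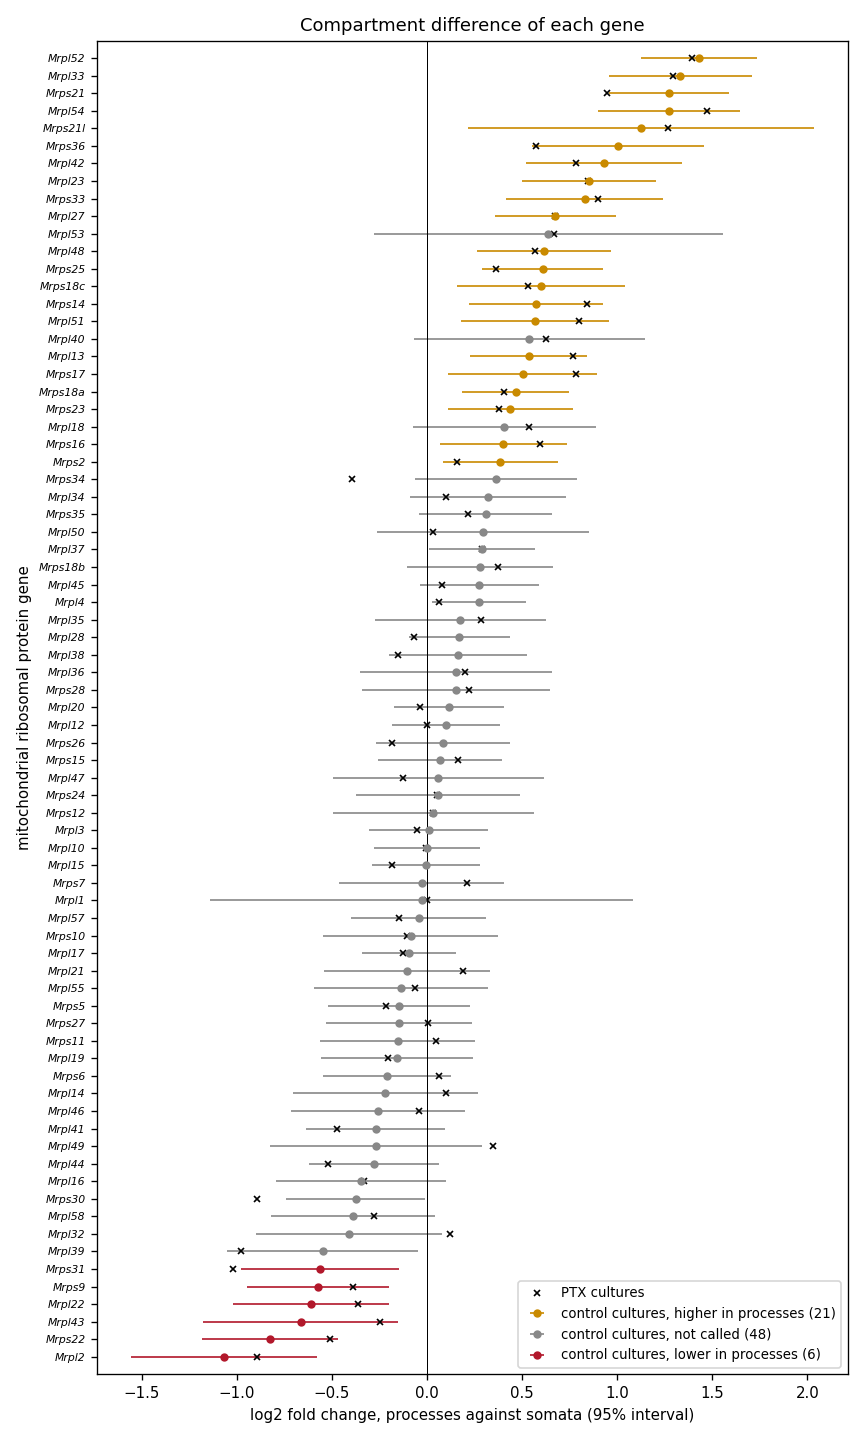
Log2 fold change of processes against somata (x axis) for each of the 75 genes (y axis, ordered by the control value); circles with 95% intervals are control cultures, coloured by the call, and crosses are PTX cultures. In control cultures 21 genes are higher and 6 lower, from 1.43 for Mrpl52 to -1.07 for Mrpl2, and most crosses lie inside the control intervals.

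The promoters of the genes were searched for motifs of transcription factors known to act on nuclear genes of mitochondrial proteins. RefSeq (build GRCr8) gave a window of 250 bases before to 50 bases after the start for 59 of the 75 genes. The motifs were GCGCA and GCGC with any base between them for NRF1, CCGGAAG for ETS factors such as GABP, and AAGATGGC for YY1, on both strands. NRF1's motif reads nearly the same on either strand, and the last letters of the ETS motif can be the first of the YY1 motif. The ETS motif stood in 20 of the 59 promoters (33.9%, against 17.2% of the promoters of tested genes and 9.22% of all promoters). The YY1 motif stood in 15 (25.4%, against 5.63% and 3.44%), and the NRF1 motif in 8 (13.6%, against 10.02% and 4.71%). At least 1 motif was found in 33 of the 59 promoters.

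The following windows show motif letters, in capitals, for genes whose values stand above, namely the most process-enriched gene, the higher Mrpl48, the lower Mrps31 and the Mrps18 paralogs. Each is written 5′ to 3′ on the strand given.
Mrpl52, ETS motif in reverse, chr15:31852877-31852904, plus strand: aagatgtcggCTTCCGGttttccccggc
Mrpl48, YY1 motif, chr1:164351536-164351563, minus strand: ctcggtaacaAAGATGGCaactaatact
Mrps31, ETS motif, chr16:76324142-76324169, minus strand: ctgtttcctaCCGGAAGccaaaaggaga
Mrps18a, ETS motif, chr9:22367401-22367428, minus strand: cacccctgctCCGGAAGcggaagtgcac
Mrps18b, NRF1 motif, chr20:2842977-2843004, plus strand: ccttgtccgGCGCATGCGCagtcgttct
Mrps18c, ETS motif in reverse, chr14:9123028-9123055, minus strand: tgtcacgtgaCTTCCGGcccggggagcg

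The ETS letters thus stood in front of genes called higher in control processes (Mrpl52, Mrps18a and Mrps18c) and of one called lower (Mrps31). Of the 18 genes called higher that had a promoter entry, 8 held the ETS motif, 3 the YY1 motif and 0 the NRF1 motif. Of the 4 genes called lower that had an entry, 1 held the ETS motif. A match describes these letters and is not a measured binding site.

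The second question was whether 48 h of PTX changed the transcripts in either compartment. In somata, 1 of the 75 mitochondrial ribosomal protein genes was called higher, where 2.09% of the 14309 tested genes were, and 0 were called lower, where 1.5% were. The median log2 fold change of PTX against control was 0.03, beside -0.01 over all tested genes, and it ran from -0.01 without control somata replicate 1 to 0.08 without control somata replicate 2. In the full comparison 4 genes had an unadjusted p under 0.05 (15.6% of all tested genes). For 74 of the 75 genes the 95% interval lay within a 2-fold change in either direction (12145 of the 14309 tested genes). The median was 0.04 for the 72 cytosolic ribosomal protein genes and 0.09 for the 76 nuclear respiratory chain genes, with 0 called in either list by edgeR and 0 and 2 genes, respectively, at an unadjusted p under 0.05. The 13 mitochondrially encoded genes had a median of -0.41, and none was called, with 2 at an unadjusted p under 0.05. Neuronal markers summed to between 1712 and 1824 CPM and astrocyte markers to between 2749 and 3790 CPM in PTX somata. With PTX, 2 of 8 neuronal and 1 of 7 astrocyte genes were called lower in somata, and 0 higher. The part of these marker levels in the PTX comparison was not tested.

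The gene called in somata was Mrps34, which encodes a mitochondria-specific protein of the small subunit. It had 6.55 and 6.46 CPM in control somata and 11.7 and 9.61 CPM in PTX somata, from 154 and 165 reads and 325 and 227 reads. Both PTX libraries lay above both control libraries, and the log2 fold change was 0.71 (SE 0.17, 95% interval 0.33 to 1.09, adjusted p = 0.049), a 1.64-fold difference. In processes, Mrps34 had 7.03 and 9.75 CPM in control and 8.38 and 7.84 CPM in PTX cultures, and these groups overlapped (log2 fold change -0.05, SE 0.21, adjusted p = 0.95).

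The call of Mrps34 lay at the threshold. It was lost with DESeq2 (adjusted p = 0.0887), with upper quartile factors (adjusted p = 0.055), and when any somata library or either PTX processes library was left out, with adjusted p between 0.0602 and 0.364 and a log2 fold change between 0.56 and 0.84. Over all alternatives the adjusted p ran from 0.00174 to 0.364. The nearest genes in the RefSeq annotation, which do not overlap Mrps34, were Eme2 (log2 fold change 0.42, adjusted p = 0.24) and Nme3 (0.28, adjusted p = 0.413), and neither was called.

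Of the genes that were not called in somata, Mrps36 and Mrpl39 had the next highest log2 fold changes, 0.46 (SE 0.19, adjusted p = 0.27) and 0.37 (SE 0.19, adjusted p = 0.393). Mrpl36, the homologue of bacterial L36, had the lowest, -0.52 (SE 0.21, adjusted p = 0.265), followed by Mrps14 (-0.33, adjusted p = 0.335) and Mrps33 (-0.24, adjusted p = 0.632). Mrpl36 had 7.99 and 6.23 CPM in control somata and 4.89 and 5.04 CPM in PTX somata. The groups did not overlap, yet the difference failed the correction over all genes. The Mrps18 paralogs had 0.26 for Mrps18a, 0.08 for Mrps18b and 0.11 for Mrps18c. In a fit with the replicate number as a block, Mrps36 was also called higher, as were 1031 of all tested genes, against 299 without it. The labels do not say what that number marks.

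In processes, 0 of the 75 genes were called higher with PTX (1.64% of all tested genes) and 0 lower (2.1%). The likelihood ratio test of edgeR and DESeq2 also gave 0 calls, and 2 genes had an unadjusted p under 0.05 (16.6% of all tested genes). The median log2 fold change was 0.04, beside -0.01 over all tested genes, and without PTX processes replicate 2 it was 0.01. For 68 of the 75 genes the interval lay within a 2-fold change in either direction (10323 of the 14309 tested genes). Neuronal markers summed to between 4350 and 5021 CPM in PTX processes, with 1 of 8 genes called higher with PTX and 2 lower. Astrocyte markers summed to between 10782 and 12058 CPM there, with 0 of 7 genes called. The part of these levels in the PTX comparison was not tested.

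Mrps30 had the lowest value in processes, with 6.13 and 7.28 CPM in control and 4.59 and 4.52 CPM in PTX cultures (log2 fold change -0.56, SE 0.19, adjusted p = 0.165). Mrpl36 (-0.47, SE 0.25, adjusted p = 0.393) and Mrps31 (-0.47, SE 0.22, adjusted p = 0.32) came next. Without PTX processes replicate 1 the value of Mrpl36 was -0.17, and without replicate 2 it was -0.89. At the other end were Mrpl43 (0.47, SE 0.25, adjusted p = 0.395), Mrpl49 (0.45, SE 0.27, adjusted p = 0.462) and Mrps6 (0.43, SE 0.16, adjusted p = 0.196). The Mrps18 paralogs had 0.20, 0.18 and 0.05 for Mrps18a, Mrps18b and Mrps18c, and Mrps36 had 0.03. None of these values passed the test.

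**Figure D4:**
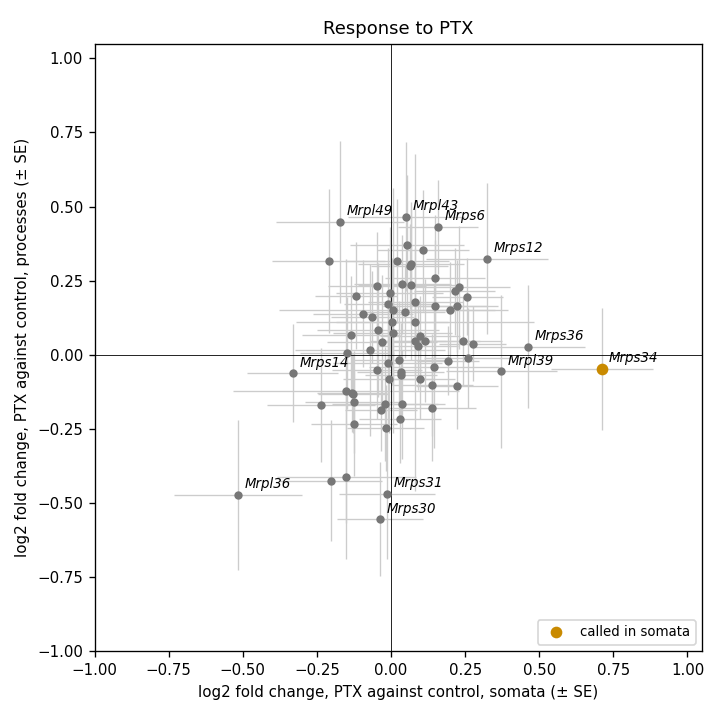
Log2 fold change of PTX against control in somata (x axis) and in processes (y axis) for each of the 75 genes, with the SE of the fit as bars. Most genes lie near 0 on both axes, and Mrps34 (0.71 in somata, -0.05 in processes) is the gene called.

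Whether the PTX response differed between the compartments was tested as an interaction, in which the log2 fold change of PTX in somata is subtracted from that in processes. No mitochondrial ribosomal protein gene and no other tested gene was called (0% of 14309), and the likelihood ratio test and DESeq2 gave 0 calls among the 75 genes. At an unadjusted p under 0.05 there was 1 gene, Mrps34, where 4% of all tested genes were. Its difference was -0.76 (SE 0.27, 95% interval -1.35 to -0.17, unadjusted p = 0.0167, adjusted p = 1), so a different response of Mrps34 in the compartments was not shown. The other low values were -0.52 for Mrps30 and -0.46 for Mrps31, and the highest were 0.62 for Mrpl49, 0.53 for Mrpl32 and 0.42 for Mrpl43. Mrps30 (unadjusted p = 0.0559), Mrpl39 (-0.43), Mrpl44 (-0.24) and Mrpl41 (-0.20), which were called lower in processes of PTX cultures and not of control cultures, all had an adjusted p of 1, so a change of their compartment difference with PTX was not shown.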

How the data were processed

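The authors deposited whole-number read counts per gene symbol, without normalization, for ribosome-depleted total RNA libraries made with a directional kit. Per the study's methods, reads were trimmed with Trimmomatic, aligned with Subread to an Ensembl annotation and counted with featureCounts; the submitters' processing notes instead list STAR, featureCounts, edgeR and the build Rnor_6.0. The strand setting is not given in the sources used here, so overlapping and antisense genes, and near-identical copies, are uncertain. The deposited tables of the authors' own PTX comparisons were not used, except for a biotype column.

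The 14309 genes whose count exceeded 20 in 2 or more libraries were fitted over all 8 libraries with 1 coefficient per group, TMM factors and glmQLFTest of edgeR 4.0.16 (R 4.3.3). P-values were Benjamini-Hochberg adjusted over all tested genes, with 0.05 as the threshold. SEs were obtained from the log2 fold change and its F statistic (value over root F), and intervals are at 95%. The scripts' tests were checked on simulated data. The fits were repeated with DESeq2 1.42.0, a likelihood ratio test, other scaling factors, no mitochondrial-genome genes, other filters, a replicate block, fewer groups and leaving out each library. Members, lists, classes and tests were chosen with earlier results of these data known. Named are the 6 genes with the highest and lowest compartment values, the 3 with the highest and lowest PTX and interaction values, genes called in those, the most and least read genes, the Mrps18 paralogs and Mrps36; other names were added after their values were seen.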

Additional observations from a re-analysis of the deposited data

How the results depend on the processing

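None of the alternatives run here gave a called mitochondrial ribosomal protein gene in processes with PTX or in the interaction. With 2 libraries per group each left-out library leaves a group of 1, assumed to vary like the others. In these fits the number of all tested genes called also changed, in both compartment comparisons and with PTX in either compartment. The ranges of calls given below therefore do not describe the mitochondrial ribosomal protein genes alone.

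Scaling had the largest effect on processes against somata. By library size only, where mitochondrial rRNA enters the totals, 0 genes were higher and 74 lower in control cultures (191 and 13271 of all 14309 tested genes; median -1.70, beside -1.86 over all), and 0 higher and 73 lower in PTX cultures (181 and 13318; median -1.74, beside -1.87). In that setting the control values of Mrps36 (-0.81), Mrps21l (-0.68), Mrpl54 (-0.55), Mrps21 (-0.54), Mrpl33 (-0.47), Mrpl52 (-0.39), Mrps18a (-1.34), Mrps18b (-1.53) and Mrps18c (-1.21) turned negative. So did the PTX-culture values of Mrps33 (-0.92), Mrps21 (-0.88), Mrps21l (-0.55), Mrpl33 (-0.53), Mrpl52 (-0.43), Mrpl54 (-0.36), Mrps18a (-1.42), Mrps18b (-1.46), Mrps18c (-1.30) and Mrps36 (-1.26). Upper quartile factors gave 11 higher and 15 lower (2750 and 4704 of all) with a median of -0.0877 in control cultures, and 13 lower (4768 of all) with a median of -0.0983 in PTX cultures. DESeq2 gave 16 higher and 2 lower in control cultures (3380 and 2361 of all) and 16 higher and 4 lower in PTX cultures (3412 and 2618). The control median was 0.0973 without a filter and 0.0667 with at least 10 reads in every library, and the PTX-culture median was 0.0224 with that filter.

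For PTX in somata, 0 genes were called with upper quartile factors, library size only, at least 10 reads in every library or DESeq2, and the median was 0.100 by library size only. For PTX in processes the median was 0.0889 by library size only, 0.0623 with only the 4 libraries compared and 0.0570 with DESeq2. The cause of these shifts was not tested.

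With 1 library left out, control cultures had 11 to 20 genes higher and 3 to 6 lower, with medians from 0.0735 to 0.189. PTX cultures had 14 to 20 higher and 3 to 7 lower, with medians from 0.0282 to 0.118. In somata 0 to 1 genes were called with PTX, with medians from -0.00708 to 0.0793, and the median in processes ran from 0.00544 to 0.0733.

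The replicate numbers recur in all groups, but the labels do not say what they mark. The difference between the replicates of a group correlated across all tested genes with r between 0.274 and 0.540 for the pairs of groups, and between -0.0734 and 0.336 over the 75 genes. With the replicate number as a block, 23 genes were higher and 7 lower in control cultures (4269 and 4003 of all tested genes), 22 and 8 in PTX cultures (4286 and 4233), 2 were higher with PTX in somata (Mrps34 and Mrps36; 1031 of all, against 299 without the block), and 0 were called in processes or in the interaction.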
